A study of Mus musculus and Homo sapiens with 10 samples.

Results

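A set of 42 mouse genes, out of 30619 genes or unmatched entries in the deposited RefSeq table, had a higher level in both libraries of Gm6871 knockdown embryonic stem cells than in both control libraries. The members were chosen by their measured levels, in RPKM (reads per kilobase of the entry, scaled to a library total). The mean of the knockdown libraries had to be at least 2 RPKM, and the lower knockdown library had to be at least 1.4 times the higher control library, on the highest entry of each gene. What follows on knockdown against control is therefore a description of chosen genes and not a test of them.

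The RNA came from mouse ES3 cells, a C57BL/6 embryonic stem cell line, collected 4 days after transduction with a lentivirus. The knockdown libraries (n = 2) carried a hairpin against Gm6871 (labelled LV sh-Gm6871), and the controls (n = 2) carried the empty hairpin vector (LV sh-empty), so both groups had been exposed to a lentivirus. Cytoplasmic RNA treated with DNase was selected for poly(A) and sequenced. Library totals, worked out from the deposited values, were 51415125 and 66050821 reads in knockdown libraries 1 and 2, and 37198636 and 63023969 reads in controls 1 and 2. Wherever values of a group are listed here, replicate 1 stands before replicate 2. Whether the RNA of Gm6871 was lower in the knockdown libraries was not analysed here. In bulk RNA, more cells that express a gene cannot be told apart from more RNA of that gene in each cell.

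Gm6871 is a KRAB zinc finger protein. Such proteins bind DNA with their zinc fingers, mostly inside transposable elements, and recruit the corepressor KAP1 (Trim28), which in turn brings the enzymes that methylate histone H3 at lysine 9. In mouse embryonic stem cells this pathway keeps many retrotransposons silent, and loss of KAP1 can also raise genes that lie close to such elements. Which genes have a higher level when a single KRAB zinc finger protein is depleted is the question that the comparison addresses.

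The size of the set was set beside the counts that the same rule gives when the group labels are swapped between the libraries. With the knockdown pair as the higher pair 42 of 9054 genes with a mean of at least 2 RPKM in that pair passed (0.464%). With the controls as the higher pair 54 genes passed. The other assignments, which each put 1 knockdown and 1 control library in the higher pair, gave 373 genes for the libraries numbered 1, 158 for the libraries numbered 2, 74 for knockdown 2 with control 1, and 27 for knockdown 1 with control 2. The correct labels thus gave the second lowest of these 6 counts, and more genes separated the libraries by their number than by the hairpin. Across all genes, limma called 0 of 11658 at an adjusted p under 0.05 (0%), with 223 at an unadjusted p under 0.05, and voom, added after the data were seen, called 0 with 250. None of the 42 was called, and the lowest adjusted p among them by limma was 0.997. With 2 libraries against 2, the smallest p that exact permutation allows for any 1 gene is 0.333.

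**Figure D1:**
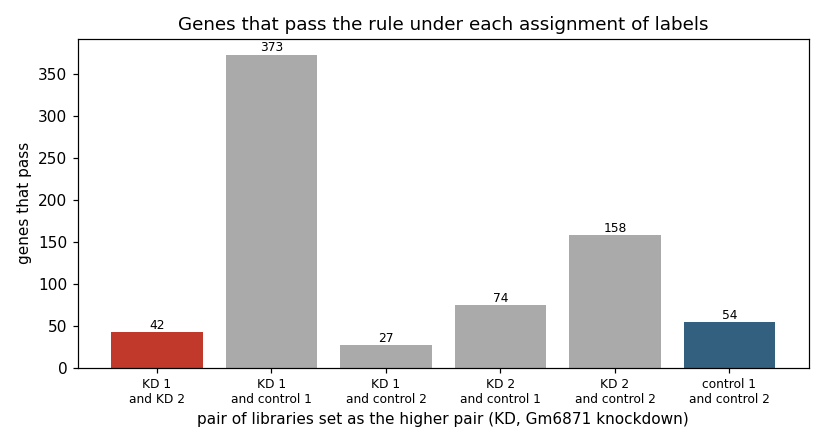
Number of genes that pass the rule (vertical axis) for each choice of the 2 libraries set as the higher pair (horizontal axis; KD, Gm6871 knockdown). The knockdown pair gives 42 genes, the control pair 54, and the pair of libraries numbered 1 gives 373.

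Most of the 42 were expressed at a low level. Their knockdown means had a median of 3.39 RPKM, against 15.6 RPKM over the 9054 genes with a knockdown mean of at least 2 RPKM, and 28 of the 42 (66.7%) were under 5 RPKM, against 19.12% of those 9054. The ratio of the knockdown mean to the control mean ran between 1.45 and 4.80 with a median of 2.21. The fold used by the rule, the lower knockdown over the higher control library, had a median of 1.56, and Ttll6 alone reached 2. In the reference annotation 33 of the genes encode proteins, 2 are long noncoding RNAs and 1 is a small nucleolar RNA, while 6 entries (14.3%, against 3.16% of the 9054) had no symbol.

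**Figure D2:**
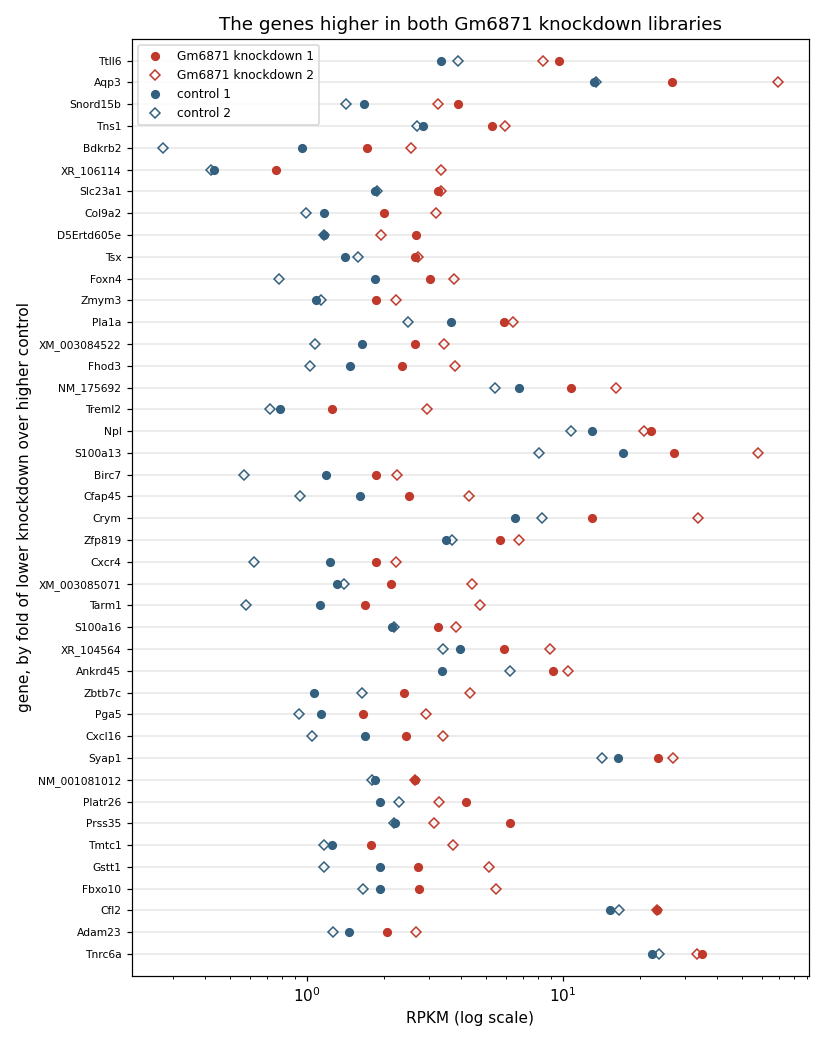
Level of each of the 42 genes in each library (horizontal axis, RPKM on a log scale), with the gene of the largest fold of lower knockdown over higher control at the top. Red marks are Gm6871 knockdown libraries, blue marks are controls, filled circles replicate 1 and open diamonds replicate 2. For every gene both red marks lie to the right of both blue marks, by 1.41 times for Tnrc6a at the bottom and 2.15 times for Ttll6 at the top.

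Genes of the cytoskeleton and of cilia included the member with the largest fold. Ttll6, which adds glutamate chains to tubulin and is best known from cilia, had 9.61 and 8.35 RPKM in the knockdown libraries, against 3.35 and 3.88 RPKM in the controls. Its means were 8.98 ± 0.891 RPKM in the knockdown and 3.62 ± 0.372 RPKM in controls (SD, n = 2 each), and the lower knockdown library was 2.15 times the higher control. Replicates of Ttll6 lay close together and the groups were far apart. Tns1, encoding tensin 1 of focal adhesions, had 5.28 and 5.96 RPKM in the knockdown, against 2.83 and 2.70 RPKM in controls. Cfl2, encoding the actin-severing protein cofilin 2, was among the most abundant members, at 23.3 RPKM in each knockdown library, against 15.3 and 16.5 RPKM in controls. Cfl2 is also among the members that only just passed the fold. Fhod3, a formin that builds actin filaments, had 2.35 and 3.78 RPKM in the knockdown, against 1.47 and 1.02 RPKM in controls. Cfap45, a cilia and flagella associated protein, had 2.51 and 4.29 RPKM, against 1.61 and 0.941 RPKM in controls. In both genes the lower knockdown library was replicate 1. Ankrd45, encoding an ankyrin repeat protein, had 9.16 and 10.5 RPKM in the knockdown, against 3.36 and 6.20 RPKM in controls, so its controls differed more from each other than its knockdown libraries did.

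Among the membrane transporters, Aqp3 stood out by level and Slc23a1 by evenness. Aqp3, a channel for water and glycerol, had 26.7 and 69.0 RPKM in the knockdown, against 13.2 and 13.5 RPKM in controls. Its means were 47.8 ± 29.9 RPKM in the knockdown and 13.3 ± 0.205 RPKM in controls (SD, n = 2 each). The knockdown libraries thus differed from each other by more than knockdown 1 differed from either control. Slc23a1, a transporter of vitamin C, had 3.24 and 3.33 RPKM in the knockdown, against 1.85 and 1.88 RPKM in controls, with replicates nearly equal in both groups.

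Several members encode receptors, ligands or other proteins of the cell surface, and all of them were at low levels. Bdkrb2, the bradykinin B2 receptor, had 1.71 and 2.55 RPKM in the knockdown, against 0.960 and 0.274 RPKM in controls. Cxcr4, the receptor of the chemokine CXCL12, had 1.87 and 2.23 RPKM, against 1.23 and 0.619 RPKM in controls. For both receptors control 2 was the lowest library. Cxcl16, a chemokine made as a transmembrane protein, had 2.43 and 3.40 RPKM in the knockdown, against 1.68 and 1.05 RPKM in controls. Treml2, a TREM-like receptor of immune cells, had 1.26 and 2.94 RPKM, against 0.787 and 0.718 RPKM in controls. Tarm1, an activating receptor of myeloid cells, had 1.69 and 4.73 RPKM, against 1.12 and 0.580 RPKM in controls. In Treml2 and Tarm1 knockdown 2 stood well above the other 3 libraries. Adam23, a cell surface protein of the ADAM family, had 2.05 and 2.67 RPKM in the knockdown, against 1.46 and 1.26 RPKM in controls. Col9a2, a chain of the cartilage collagen type IX, had 2.00 and 3.19 RPKM, against 1.16 and 0.988 RPKM in controls. Neither gene showed an overlap of the groups, as the rule requires.

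Enzymes made up the next group. Npl, the lyase that splits sialic acid, had 22.1 and 20.7 RPKM in the knockdown, against 12.99 and 10.7 RPKM in controls, with means of 21.4 ± 0.993 and 11.9 ± 1.61 RPKM (SD, n = 2 each). Pla1a, a phospholipase that acts on phosphatidylserine, had 5.90 and 6.37 RPKM in the knockdown, against 3.65 and 2.47 RPKM in controls. Both genes had knockdown replicates within a small margin of each other. Crym, mu-crystallin, which binds thyroid hormone and reduces ketimines, had 12.9 and 33.5 RPKM in the knockdown, against 6.51 and 8.30 RPKM in controls. Gstt1, a glutathione transferase, had 2.73 and 5.15 RPKM, against 1.92 and 1.16 RPKM in controls. Fbxo10, an F-box subunit of a ubiquitin ligase, had 2.73 and 5.49 RPKM, against 1.93 and 1.66 RPKM in controls. For these 3 genes the difference between the knockdown libraries was larger than that between knockdown 1 and the higher control. Tmtc1, an enzyme of the endoplasmic reticulum that attaches mannose to cadherins, had 1.78 and 3.73 RPKM in the knockdown, against 1.25 and 1.17 RPKM in controls. Pga5, a pepsinogen, had 1.65 and 2.91 RPKM, against 1.14 and 0.930 RPKM in controls. Prss35, a protein of the serine protease family, had 6.22 and 3.14 RPKM in the knockdown, against 2.20 and 2.19 RPKM in controls. Prss35 was the 1 member in which knockdown 1 exceeded knockdown 2 by 1.4 times or more. Birc7, an inhibitor of apoptosis, had 1.87 and 2.25 RPKM, against 1.19 and 0.566 RPKM in controls.

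A pair of S100 proteins, small calcium-binding proteins, were the only members that neighbour each other in the gene order of GRCm38.p6 when the 11096 tested genes with a place in it are considered. S100a13 had 27.1 and 58.0 RPKM in the knockdown, against 17.1 and 8.03 RPKM in controls, and S100a16 had 3.26 and 3.83 RPKM, against 2.14 and 2.18 RPKM in controls. No tested gene lay between them. S100a13 varied widely between replicates in both groups, while S100a16 was even in both. Syap1, another abundant member, had 23.4 and 26.9 RPKM in the knockdown, against 16.3 and 14.3 RPKM in controls.

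The nuclear and RNA-binding members included both even and uneven genes. Zfp819, itself a KRAB zinc finger protein, had 5.69 and 6.76 RPKM in the knockdown, against 3.49 and 3.69 RPKM in controls. Zmym3, a zinc finger protein found with histone deacetylase complexes, had 1.86 and 2.23 RPKM, against 1.08 and 1.14 RPKM in controls. Replicates of both genes were close together in both groups. Foxn4, a forkhead factor known from the retina, had 3.03 and 3.74 RPKM in the knockdown, against 1.85 and 0.775 RPKM in controls. Zbtb7c, a BTB zinc finger protein, had 2.39 and 4.34 RPKM, against 1.07 and 1.64 RPKM in controls. Tnrc6a, the GW182 protein that Argonaute recruits to repress messages bound by microRNAs, had 34.9 and 33.4 RPKM in the knockdown, against 22.4 and 23.7 RPKM in controls. Tnrc6a rested on the most reads of any member, up to 18730 in a library, and had the smallest fold. Tsx, an X-linked gene near the X-inactivation centre, had 2.63 and 2.72 RPKM in the knockdown, against 1.405 and 1.58 RPKM in controls.

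Noncoding members were few. Snord15b, a box C/D small nucleolar RNA made from an intron of the ribosomal protein gene Rps3, had 3.89 and 3.24 RPKM in the knockdown, against 1.67 and 1.42 RPKM in controls. Rps3 itself had 1315 and 1380 RPKM in the knockdown, against 1329 and 1132 RPKM in controls, and its groups overlapped. Whether reads on Snord15b came from the small RNA or from the host transcript was not tested in these poly(A)-selected libraries. The long noncoding RNA Platr26 had 4.17 and 3.27 RPKM in the knockdown, against 1.92 and 2.29 RPKM in controls. D5Ertd605e, also annotated as a long noncoding RNA, had 2.67 and 1.94 RPKM, against 1.16 and 1.17 RPKM in controls. In these 3 genes knockdown 1 was the higher knockdown library. Of the 6 entries without a symbol, NM_175692 was the most abundant, at 10.7 and 16.1 RPKM in the knockdown, against 6.73 and 5.44 RPKM in controls. XR_104564 had 5.89 and 8.93 RPKM, against 3.97 and 3.39 RPKM in controls. XR_106114 had the largest ratio of means in the whole set, 4.80, at 0.755 and 3.34 RPKM in the knockdown and 0.433 and 0.421 RPKM in controls, and that ratio came from knockdown 2. The other 3, XM_003084522, XM_003085071 and NM_001081012, had knockdown means between 2.63 and 3.27 RPKM and control means between 1.35 and 1.82 RPKM.

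**Figure D3:**
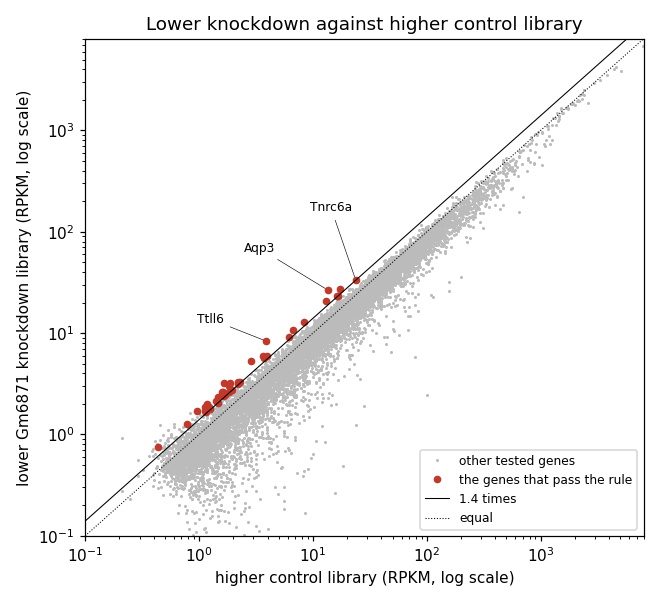
The lower Gm6871 knockdown library (vertical axis) against the higher control library (horizontal axis), both in RPKM on log scales, for the genes tested. Grey points are other tested genes, red points the 42 genes, the solid line marks 1.4 times and the dotted line equality; 4 genes with a 0 on either axis, and points outside the axes, are not drawn. The red points lie just above the solid line, with Ttll6 at 8.35 against 3.88 RPKM and Aqp3 at 26.7 against 13.5 RPKM farthest from it.

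The members differed in how evenly the replicates carried the difference. In 10 genes both pairs of replicates lay within 1.2 times of each other, namely Ttll6, Tns1, Slc23a1, Tsx, Zfp819, S100a16, Syap1, NM_001081012, Cfl2 and Tnrc6a. Their ratios of means lay between 1.45 and 2.48, with a median of 1.69. In 9 genes knockdown 2 was at least 2 times knockdown 1, namely Aqp3, XR_106114, Treml2, S100a13, Crym, XM_003085071, Tarm1, Tmtc1 and Fbxo10. Their ratios of means lay between 2.28 and 4.80, with a median of 3.14. The other 23 genes had ratios between 1.74 and 3.46, with a median of 2.21. A high ratio in the 9 genes follows from how they were grouped. The fold of the rule differed little, with medians of 1.52 in the 10 even genes, 1.56 in the 9 and 1.57 in the other 23. Knockdown 2 exceeded knockdown 1 in 33 of the 42 genes (78.6%), against 47.5% of the 9054 genes at this level, and it did so by at least 2 times in 2.67% of the 9054. Control 1 exceeded control 2 in 27 of the 42 (64.3%), against 52.5% of the 9054. Since knockdown 1 was the lower knockdown library in those 33 genes, it and control 1 most often set the fold. Knockdown 2 also had the highest level of 28S ribosomal RNA, whose entry Rn28s1 stood at 209 and 1128 RPKM in the knockdown and at 263 and 66.2 RPKM in controls. Its part in these values was not tested.

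**Figure D4:**
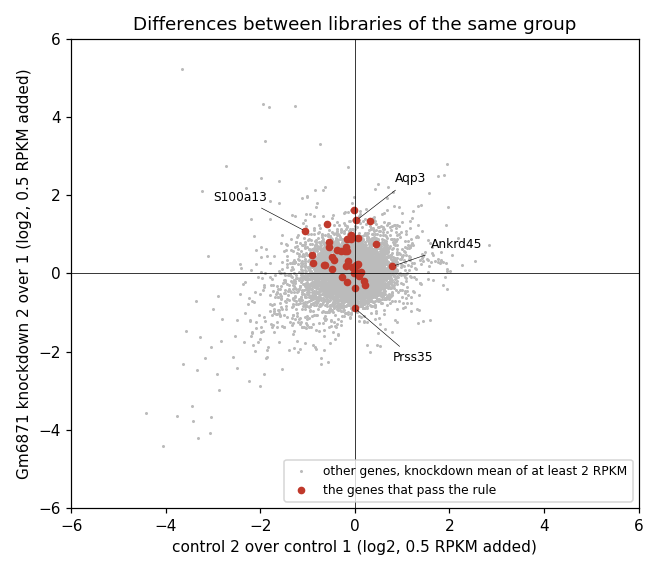
Difference between libraries of the same group for genes with a knockdown mean of at least 2 RPKM: control 2 over control 1 on the horizontal axis and Gm6871 knockdown 2 over 1 on the vertical axis, both as log2 after 0.5 RPKM was added. Red points are the 42 genes, grey points the others within the axes. Of the 42 genes, 33 lie above 0 on the vertical axis, with Prss35 the lowest.

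The genes near the limits of the rule showed how little separated members from others. By fold, Tnrc6a (1.41), Adam23 (1.41) and Cfl2 (1.41) were just inside, and Shc2 (1.39), Patl2 (1.38) and Scube3 (1.38) just outside. By level, Zmym3, XR_106114 and Cxcr4 were just inside with knockdown means of 2.05 RPKM each. Nova2 at 1.98 RPKM, Nccrp1 at 1.95 RPKM and XR_106031 at 1.94 RPKM had a sufficient fold and were just outside. A mean over both knockdown libraries is also why XR_106114 and Treml2 passed with knockdown 1 at 0.755 and 1.26 RPKM.

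Depth limited part of the set. Reads per member and library, worked out from the RPKM values, ran between 9 and 18730, and 9 of the 42 had under 50 reads in at least 1 library. These are the smallest reads that the values allow, so true reads can be higher and the intervals below narrower. For 33 of the 42 the exact 95% Poisson intervals of the lower knockdown and the higher control library did not overlap. They overlapped for Snord15b, XR_106114, D5Ertd605e, Birc7, XM_003085071, Tarm1, Pga5, Platr26 and Gstt1. Snord15b, for example, rested on 29 and 31 reads in the knockdown, against 9 and 13 reads in controls. Its intervals were 2.20 to 4.59 RPKM in the lower knockdown library and 0.763 to 3.17 RPKM in the higher control. Ttll6 rested on 1592 and 1777 reads, against 402 and 788 reads in controls. These intervals cover counting error only, without the spread between cultures.

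Genes with several RefSeq entries reached the level of the rule less often, and the reason was not tested. Of protein-coding genes with 1 entry in the table, 47.4% of 16803 had a knockdown mean of at least 2 RPKM, against 18.6% of 3393 genes with more entries. In the set, 41 of 42 genes had 1 entry (97.6%), against 92.9% of the 9054. Zmym3 was the exception, with 5 entries. Only the entry NM_019831 of Zmym3 was above 1 RPKM, and its other entries were at 0.523 RPKM or below in every library.

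Gene lists for pathways of some members and for other processes, made with earlier results of these data in view, were described by counts and medians. In every list limma called 0. Where a list holds a member, its counts and median include that member, which the rule had chosen for being higher in the knockdown. Over all 11658 tested genes, 49.6% had a log2 difference above 0, the median was -0.0026, and both knockdown libraries lay above both controls in 13.6% and below both in 14.2%. For tubulin glutamylation 5 of 10 tested genes were above 0, with a median log2 difference of -0.02, and 2 had both knockdown libraries above both controls, Ttll6 (1.203) and Ttll3 (0.66). Ttll3, a tubulin glycylase, had 0.741 and 1.19 RPKM in the knockdown, against 0.430 and 0.401 RPKM in controls. The abundant glutamylases Ttll4 (-0.09) and Ttll1 (-0.22, a catalytic subunit of a polyglutamylase) and the deglutamylase Agtpbp1 (-0.36), the lowest of the list, were below 0. The other tubulin enzymes thus lay on both sides of 0. Ttll6 stood at the top, but the rule had chosen it on this same comparison.

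For sialic acid metabolism 14 of 17 tested genes were above 0, with a median of 0.19. In 3 of the 17 both knockdown libraries lay above both controls, against 13.6% of all tested genes. These were Npl (0.83), Gnpda1 (0.64), which acts on glucosamine 6-phosphate downstream of Npl, and the sialyltransferase St3gal4 (0.42). Gnpda1 had 92.4 and 143 RPKM in the knockdown, against 84.4 and 63.8 RPKM in controls. Amdhd2 (0.34) and Renbp (0.55), which handle N-acetylated amino sugars, were above 0 with overlapping groups. In both of them knockdown 1 was below control 1. Control 2 was the lowest library in Npl, Gnpda1, St3gal4, Amdhd2 and Renbp. The synthesis enzyme Nans (-0.35), the lowest of the list, had 54.2 and 37.1 RPKM in the knockdown, against 56.7 and 58.1 RPKM in controls. None of these passed the test.

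Of the small nucleolar and Cajal body RNAs, 20 of 26 tested were above 0, with a median of 0.15. In 6 of the 26 both knockdown libraries lay above both controls, against 13.6% of all tested genes. These are levels of the entries in poly(A)-selected RNA, and whether the reads came from the small RNAs themselves was not tested. Snord15b (0.99) was the highest, followed by Snora41 (0.67) and Snora44 (0.59). Snord15a, made from the same host gene as Snord15b, had 0.788 and 1.02 RPKM in the knockdown, against 0.363 and 0.536 RPKM in controls (0.57). Scarna8 (-0.73) was the lowest. A separate list of snoRNA host genes, not matched gene by gene to these RNAs, had 14 of 18 above 0, with a median of 0.13. It ran between Ncl (-0.22) and Snhg9 (0.56). In 5 of the 18 both knockdown libraries lay above both controls, against 13.6% of all tested genes. Levels differed widely among the small RNAs, and Snora73b, the most abundant, had 57.6 and 48.7 RPKM in the knockdown, against 40.3 and 56.0 RPKM in controls.

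Steroid synthesis genes had 7 of 8 above 0 but a median of only 0.04. Cyp11a1 (1.04), which cuts the cholesterol side chain, had 1.63 and 1.25 RPKM in the knockdown, against 0.455 and 0.420 RPKM in controls, and fell short of the set by its level. The lowest was Nr5a2 (-0.13). Lysosome and autophagy genes had 17 of 23 above 0, with a median of 0.15, between Ctsz (-0.36) and Lamp2 (1.03). Lamp2, a membrane protein of lysosomes, had 22.0 and 32.9 RPKM in the knockdown, against 17.2 and 9.65 RPKM in controls, without overlap but under the fold of the rule.

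**Figure D5:**
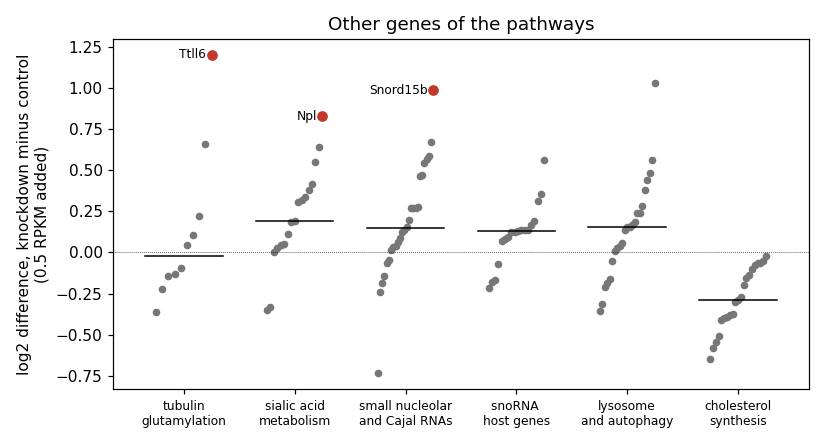
Log2 difference, knockdown minus control after 0.5 RPKM was added (vertical axis), of every tested gene of 6 lists (horizontal axis), sorted within each list. Red points are genes of the set of 42, grey points other genes, and black lines list medians. Ttll6 (1.203), Npl (0.83) and Snord15b (0.99), chosen by the rule on this same comparison, are the highest of their lists. All cholesterol synthesis genes lie below 0.

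The remaining lists, like those of snoRNA host genes, of steroid synthesis and of lysosome and autophagy, held none of the 42 genes. Their median log2 differences, with the lowest and the highest gene of each, were 0.03 for naive pluripotency (11 of 19 above 0, Nr0b1 -0.41 to Klf2 0.73) and -0.59 for primed state (4 of 15, Pou3f1 -0.97 to Cldn6 0.56). Of the primed state genes 7 of 15 had both knockdown libraries below both controls, against 14.2% of all tested genes. That count was 3 of 19 for naive pluripotency, 6 of 16 for KAP1 and H3K9 machinery and 0 of 15 for the germline genes. It was 2 of 16 for imprinted genes, 2 of 20 for the p53 response and 4 of 18 for the integrated stress response. The interferon response had 1 of 10 and the histone genes 2 of 8. The median was -0.11 for KAP1 and H3K9 machinery (5 of 16, Dnmt3b -0.91 to Zfp809 0.16). It was -0.29 for the list of germline genes kept silent by methylation (4 of 15, Tex19.1 -1.04 to Sycp3 0.35). Not every gene of that list was silent here, as Rhox5 had 218 and 312 RPKM in the knockdown, against 226 and 697 RPKM in controls. Tex19.1 had 53.8 and 14.6 RPKM in the knockdown, against 49.5 and 68.9 RPKM in controls, so its groups overlapped. Imprinted genes had -0.12 (4 of 16, Grb10 -0.42 to Igf2r 0.31) and the p53 response -0.03 (8 of 20, Perp -0.37 to Bbc3 0.34). The integrated stress response had -0.05 (6 of 18, Chac1 -0.53 to Nupr1 0.51) and the interferon response -0.15 (5 of 10, Oasl2 -0.76 to Ifitm1 0.69). Histone genes taken by symbol prefix had -0.14 (3 of 8, H4c4 -0.67 to H1f1 0.64). The prefixes were meant for replication-dependent histones but also took in H1f0 and H1f10, which are not of that kind. H4c4 was at 0.948 RPKM or below in every library of this poly(A)-selected RNA.

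Markers of the cell line and of other cell types were set beside the set. Of the 7 defining embryonic stem cell markers 6 were at 0.5 RPKM or more, including Pou5f1 at 960 and 888 RPKM in the knockdown and 946 and 1175 RPKM in controls. Esrrb was at 0.0499 RPKM or below in every library. That is the value of the deposited entry, and whether the RNA of the gene was that low was not tested. The 10 trophectoderm markers summed to 347 and 79.1 RPKM in the knockdown, against 378 and 38.0 RPKM in controls. The 14 feeder fibroblast markers summed to 149 and 37.2 RPKM, against 153 and 126 RPKM in controls, and the 13 primitive endoderm markers to 289 and 177 RPKM, against 316 and 312 RPKM in controls. Knockdown 2 had the lowest primitive endoderm sum, which was carried mostly by Sparc. Without Sparc the other 12 markers summed to 85.7 and 63.1 RPKM in the knockdown, against 99.1 and 73.5 RPKM in controls. Those sums overlapped between the groups. All 9 of the tested primitive endoderm markers had a log2 difference below 0, though that of Gata6 was only -0.0068. In 4 of the 9 both knockdown libraries lay below both controls, against 14.2% of all tested genes. The fibroblast sum was carried by Vim, and without it the other 13 markers summed to 56.7 and 14.6 RPKM in the knockdown, against 62.2 and 13.2 RPKM in controls. The trophectoderm sum was carried mostly by Krt8 and Krt18. Krt8 had 181 and 35.6 RPKM in the knockdown, against 199 and 15.6 RPKM in controls. Krt18 had 146 and 26.0 RPKM, against 156 and 14.9 RPKM in controls. Krt7, Ascl2 and Eomes were higher in knockdown 2 than in knockdown 1. Hand1, Cdx2, Gata3, Tfap2c and Elf5 were lower in knockdown 2. Libraries numbered 1 thus had the higher sums of the 13 fibroblast markers without Vim and of trophectoderm markers. Tagln, for example, had 17.6 and 0.487 RPKM in the knockdown, against 18.3 and 1.38 RPKM in controls. None of these lists had a gene at 0 in all 4 libraries or a gene in the set, and their part in the values of the 42 genes was not tested.

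Promoter windows of RefSeq, 250 bases before to 50 after a start in GRCm38.p6, were given for 25 of the 42 genes, as 30 windows. They were searched on both strands for 6 short motifs. TATAAA was in 4 of the 30 windows (13.3%), against 7.01% of 10867 windows of tested genes, and the E-box CACGTG in 5 (16.7%, against 10.5%). Overlapping windows of the same gene can count a site again, as with the CACGTG of Fbxo10, which lies in both of its windows. CCAAT was in 9 (30.0%, against 38.4%) and the SP1-type GGGCGG in 17 (56.7%, against 64.3%). TGACGTCA and TGACTCA were in 0 of the 30, against 3.17% and 3.33%. The median CpG count was 15 in members' windows and 21 in those of tested genes, and the median GC share was 58.0% and 61.0%. With 30 windows these differences amount to a few windows each and are given as a description. The windows of the 2 genes with the largest fold, Ttll6 and Aqp3, both hold TATAAA. That of the sialic acid lyase gene Npl and that of the zinc finger gene Zfp819 hold CACGTG. They are shown 5′ to 3′ on the strand of the gene, with every match to the 6 motifs in capitals (chr11:96133536-96133835, plus strand, for Ttll6; chr4:41098134-41098433, minus strand, for Aqp3; chr1:153549665-153549964, minus strand, for Npl; chr7:43606919-43607218, plus strand, for Zfp819).
Ttll6: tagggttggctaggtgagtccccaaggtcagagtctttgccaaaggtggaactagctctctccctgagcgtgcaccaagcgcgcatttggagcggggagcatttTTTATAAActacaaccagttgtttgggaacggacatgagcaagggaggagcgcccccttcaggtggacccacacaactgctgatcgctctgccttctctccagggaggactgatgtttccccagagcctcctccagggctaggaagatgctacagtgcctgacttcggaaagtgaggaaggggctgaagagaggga
Aqp3: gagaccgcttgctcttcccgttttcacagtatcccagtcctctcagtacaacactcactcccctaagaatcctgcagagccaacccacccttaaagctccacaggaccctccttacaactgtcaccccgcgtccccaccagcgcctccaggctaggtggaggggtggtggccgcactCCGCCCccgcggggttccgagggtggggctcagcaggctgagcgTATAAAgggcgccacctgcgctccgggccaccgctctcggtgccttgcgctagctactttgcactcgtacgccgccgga
Npl: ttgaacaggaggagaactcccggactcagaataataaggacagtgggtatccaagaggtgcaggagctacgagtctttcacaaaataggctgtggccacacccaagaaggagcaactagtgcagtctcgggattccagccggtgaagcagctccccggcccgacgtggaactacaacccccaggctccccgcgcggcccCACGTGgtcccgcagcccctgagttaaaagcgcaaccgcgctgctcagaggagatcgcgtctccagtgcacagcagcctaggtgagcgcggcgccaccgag
Zfp819: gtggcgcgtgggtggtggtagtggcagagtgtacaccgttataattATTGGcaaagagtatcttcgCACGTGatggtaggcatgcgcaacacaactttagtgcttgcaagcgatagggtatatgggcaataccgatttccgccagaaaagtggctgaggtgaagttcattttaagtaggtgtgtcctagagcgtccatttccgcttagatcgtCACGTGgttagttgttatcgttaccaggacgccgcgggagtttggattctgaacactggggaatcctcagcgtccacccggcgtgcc

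The window of Ttll6 holds TATAAA on both strands in overlapping letters, and the window of Aqp3 holds it close to the start, downstream of a GGGCGG match on the reverse strand. Zfp819 holds CACGTG at more than 1 place before its start. A match is a description of letters and not a binding site.

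In the human part of the series, H1 embryonic stem cells carried hairpins against DNA methyltransferases or an empty vector, with 1 library each and so without a test. Of the 42 genes, 31 had a human entry of the same symbol, and 19 of these had a mean of at least 0.5 RPKM. The DNMT knockdown library was at least 1.4 times the control in 4 of the 19, ADAM23, AQP3, NPL and S100A16, against 19.8% of 13043 human genes at that level. NPL stood at 1.28 RPKM in the DNMT knockdown and 0.667 RPKM in the control, and AQP3 at 1.05 RPKM in the DNMT knockdown and 0.497 RPKM in the control. TTLL6 pointed the other way, at 0.970 RPKM in the DNMT knockdown and 1.69 RPKM in the control. The share of 4 in 19 was close to that background. The DNMT knockdown library was above the control in 5 of the 19, against 51.1% of the 13043 genes.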

How the data were processed

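Poly(A)-selected cytoplasmic RNA of 4 mouse libraries was analysed. The authors deposited RPKM values per RefSeq entry. Bowtie 0.12.5 and the builds mm9 and hg19 are named in the submitters' processing notes. The annotation release, the placing of reads with several positions and strand use are unknown here (not given in the sources used), so paralogs and overlapping genes are uncertain. The authors' own means and fold changes (8 columns) were not used.

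Of 36083 entries 27884 matched a symbol in a RefSeq table of GRCm38.p6, used for names and gene order. The entry with the highest mean was kept per gene, which left 30619 genes or unmatched entries. Library totals and reads were worked out from the deposited RPKM: 1 total per library made 100% of 14949 L1 loci whole within 0.01 reads. The smallest whole length up to 120000 giving whole reads within 0.0001 was found for 100% of 11658 genes, and it may be a fraction of the true length, as for Fhod3. limma 3.58.1 (R 4.3.3) with a variance trend was run on log2(RPKM + 0.5) of the deposited values, for the 11658 genes with a mean of at least 0.5 RPKM, with Benjamini-Hochberg adjustment. The added pseudocount makes log2 differences of low genes too small. The script was tested on simulated data. Alternatives were other folds, minima, pseudocounts, scalings, entries, a replicate block and leaving out each library.

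The members and lists were chosen with earlier results of these data known. Named were the 12 members with the largest fold, the 12 with the highest knockdown mean, Ttll6, Npl and Snord15b, 3 genes on each side of each threshold, members on lists and the extremes of each list. The other genes named were chosen after their values were seen. Nothing in the labels says that replicates came from separate cultures, so the spread behind each p-value is that of these libraries and may be technical. ChIP peaks near members were not analysed here, since no mm9 gene positions were used.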

Additional observations from a re-analysis of the deposited data

How the results depend on the processing

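limma called 0 genes under every alternative, including the replicate block (0 called, 372 at an unadjusted p under 0.05, against 223 without it) and each left-out library. The labels do not say that the replicate numbers pair the libraries, and deviations of same-numbered libraries correlated at 0.292. The number of genes that met the rule followed its limits: 74 at a fold of 1.3, 26 at 1.5 and 1 at 2, 84 with a knockdown mean of at least 1 RPKM and 14 with at least 5 RPKM, 1557 with no minimum, and 26 with 0.5 RPKM added. Leaving out a library gave 78 (without knockdown 2) to 720 (without control 1), with 713 without knockdown 1 and 161 without control 2. Scaling to equal medians, counting every entry and choosing the entry by the knockdown mean, the last added after the data were seen, kept the count within 1.5 times. The log2 differences of the members moved by more than the replicate spread in 27 of 493 alternatives, which is no evidence of stable sizes. The replicate block, the dropped variance trend and the dropped filter cannot change a log2 difference. Leaving out a library moved 0 of them by that measure, although Aqp3 ran between 0.97 (without knockdown 2) and 2.33 (without knockdown 1). The sign of the members is fixed by the rule and shows no stability. The KAP1 and H3K9 list median was -0.13 with a pseudocount of 0.1, with median centring and with voom, -0.083 with a pseudocount of 1, -0.073 without a filter, and between -0.20 and -0.059 with a library left out. With a library left out the medians ran between -0.41 and -0.094 for cholesterol synthesis, -0.21 and 0.17 for the integrated stress response, and -0.69 and 0.56 for the interferon response, so the direction of these last lists rests on single libraries. The cause was not tested. Peaks within 10 or 50 kb of members were not run. Depth limits the 9 members under 50 reads.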

Other observations

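The cholesterol synthesis list held none of the 42 genes, and its log2 differences pointed the other way. All 21 of its tested genes had a log2 difference below 0, with a median of -0.29, and 10 had both knockdown libraries below both controls, against 14.2% of all tested genes. The primed state list had 7 of 15 such genes with a lower median (-0.59), and the primitive endoderm markers 4 of 9. limma called none of them. Lss, which closes the sterol ring, had 19.4 and 18.99 RPKM in the knockdown, against 27.6 and 27.5 RPKM in controls (log2 difference -0.51). Sqle, which oxidises squalene, had 43.5 and 32.3 RPKM, against 55.6 and 54.4 RPKM in controls (-0.55). Replicates of Lss were nearly equal in both groups. The lowest of the list was Pmvk (-0.65), a kinase of the mevalonate pathway, at 16.4 and 12.0 RPKM in the knockdown, against 16.4 and 30.2 RPKM in controls, and the highest was Insig1 (-0.02). The size of the list median rests on single libraries, at -0.094 without knockdown 2 and -0.41 without knockdown 1.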
